A study of Homo sapiens with 9 samples.

Results

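The genes described here encode the cyclin-dependent kinase (CDK) inhibitors, measured in the human breast cancer cell line MDA-MB231 after inhibition of MEK or of metalloproteinases. They were taken as every probe set annotated to 1 of 7 named CDKN genes, which gave 14 of the 49395 probe sets in the table and 6 of the 18132 genes measured. CDKN2C was not analysed here. Where a gene had several probe sets, the one of highest mean stands for it, and the others are given beside it. RNA was hybridised to 9 Affymetrix PrimeView arrays. Of these, 3 came from cultures with 3 µM PD325901, a MEK inhibitor, 2 from cultures with 10 µM BB94 (batimastat, a broad metalloproteinase inhibitor) and 4 from cultures with 0.1% DMSO vehicle, called control here. All cultures were plated at 70% confluency in medium with 10% serum, received fresh medium with inhibitor or vehicle on the next day, and were lysed 24 h later at 90% confluency. Both inhibitors came from 10 mM DMSO stocks, and no source used here says whether the inhibitor cultures held as much DMSO as control. All cultures are of 1 cell line, the labels call them biological replicates, and p-values measure the spread between these cultures.

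CDK inhibitors fall into 2 families. The CIP/KIP proteins p21 (CDKN1A), p27 (CDKN1B) and p57 (CDKN1C) bind complexes of cyclins with CDK2 and related kinases and block them, although p21 and p27 can also help cyclin D to assemble with its kinases. The INK4 proteins p16 (CDKN2A), p15 (CDKN2B) and p19 (CDKN2D) bind CDK4 and CDK6 and keep them from cyclin D. Both families hold cells in G1 by leaving the retinoblastoma protein unphosphorylated. ERK signalling is known to induce CDKN1A as well as cyclin D1, and to lower p27, which is set largely at the protein level through the ubiquitin ligase subunit SKP2. MDA-MB231 cells are known for activating mutations in the RAS and RAF genes upstream of MEK, and for a homozygous deletion of CDKN2A.

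The promoters of the members that changed are shown because these members moved in opposite directions. A RefSeq window was held for 3 of the 4 such genes, and CDKN1C had none. Each line gives the 250 bases before the annotated start, read 5′ to 3′ on the gene's strand, with capitals marking the GC box GGGCGG and the CCAAT box CCAAT on either strand.
CDKN1A (GRCh38.p14, chr6:36678464-36678713, plus strand): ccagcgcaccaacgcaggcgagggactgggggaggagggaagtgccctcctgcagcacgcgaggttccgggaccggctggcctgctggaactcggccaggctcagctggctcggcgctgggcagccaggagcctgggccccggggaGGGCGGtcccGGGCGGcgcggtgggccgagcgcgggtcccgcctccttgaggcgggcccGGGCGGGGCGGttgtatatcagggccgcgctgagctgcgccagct
CDKN1B (GRCh38.p14, chr12:12717118-12717367, plus strand): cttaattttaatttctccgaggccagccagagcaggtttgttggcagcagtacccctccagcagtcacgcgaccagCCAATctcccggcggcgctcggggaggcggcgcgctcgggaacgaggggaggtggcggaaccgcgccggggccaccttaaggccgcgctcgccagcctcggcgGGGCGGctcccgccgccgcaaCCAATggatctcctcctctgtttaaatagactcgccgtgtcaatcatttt
CDKN2D (GRCh38.p14, chr19:10568980-10569229, minus strand): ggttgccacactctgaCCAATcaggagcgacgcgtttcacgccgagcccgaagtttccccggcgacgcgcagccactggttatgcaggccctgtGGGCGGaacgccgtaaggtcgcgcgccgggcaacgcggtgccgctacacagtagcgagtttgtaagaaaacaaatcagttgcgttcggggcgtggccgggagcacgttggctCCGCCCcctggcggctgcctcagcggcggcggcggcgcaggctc
The CDKN1A window held 4 GC boxes, of which the pair nearest the start overlapped by a base, and no CCAAT box. CDKN1B held 1 GC box and 2 CCAAT boxes, and CDKN2D held 2 GC boxes and 1 CCAAT box. Among 35116 windows of the same length, 42.6% held a GC box and 32.0% a CCAAT box. The E2F-like motif TTTNNCGC, searched on both strands, was found once, in CDKN2D, and in 5.92% of all windows. The forkhead motif TGTTTAC (2.98% of all windows), the E-box CACGTG (6.34%) and the cell cycle homology element TTTGAA (13.3%) had no match in these 3 windows. GC content was 76.4% in CDKN1A, 64.4% in CDKN1B and 67.6% in CDKN2D, against a median of 58.0% over all windows. A match is a description of the letters and was not set against any binding data.

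Values are log2 probe set summaries, so a difference of 1 is a doubling, and levels of different genes are not compared. The highest of 23 background probe sets lay between 6.02 and 6.50 on the 9 arrays and served as the background level. The median background probe set lay between 2.92 and 3.05. The median of all probe sets lay between 6.05 and 6.34, so this level is a strict one, and a value below it does not show that the RNA was absent. Of 12 markers of the cell line, 9 lay above background on all 9 arrays, namely the mesenchymal or basal genes VIM, AXL, CD44, SPARC and LAMB3 and the luminal or epithelial genes KRT8, KRT18, EPCAM and GATA3. ESR1, PGR and CDH1, also luminal or epithelial, lay below it throughout. Under PD325901, GATA3 (log2 change 0.90) and KRT8 (0.58) rose and KRT18 (-1.14) fell, CDH1 was called higher with all 9 arrays below background, and the other 8 were not called. With arrays centred on their median over genes, 2 of the 12 were called higher and 5 lower, and KRT8 was not called (log2 change 0.33, limma adjusted p = 0.0575). KRT18 stood at 11.57 and 11.61 in control replicates 1 and 2 and at 12.33 and 12.52 in replicates 3 and 4. Of 8 markers of leukocytes, endothelium, fibroblasts and hepatocytes, 6 lay below background on every array. The other 2 were COL1A1, above background on all 9 arrays, and LYZ. The linear signals of all 8 were summed on each array. The log2 of this sum was 8.52 to 8.56 in PD325901, 8.34 to 8.47 in BB94 and 8.53 to 8.94 in control. LYZ fell at least 1.69-fold under PD325901 (adjusted p = 0.0101), and its part in the results below was not tested. The ACTB control probe sets, a measure of RNA integrity, differed between the transcript's 3' and 5' ends by 3.50 to 4.15 in PD325901, 3.91 to 4.22 in BB94 and 2.96 to 3.89 in control. All 6 ERK output genes listed as a check of MEK inhibition fell under PD325901, with a median log2 change of -4.18. This list was chosen with earlier results of these data known, so it is no independent check. Limma called 0 of 6 under BB94, with a median of -0.09 and 0 at an unadjusted p under 0.05. DUSP6 (-4.01), ETV5 (-4.35), IER3 (-1.25) and PHLDA1 (-1.03) were above background in PD325901. ETV4 fell at least 9.53-fold and SPRY4 at least 25.4-fold, although 1 of 3 SPRY4 probe sets rose. In control, replicates 1 and 2 differed from replicates 3 and 4 in several members, which is given beside them.

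Under PD325901, 4 of the 6 measured CDK inhibitor genes changed, 2 higher and 2 lower, and the direction did not follow the families. CDKN1C and CDKN1B of the CIP/KIP family rose, CDKN1A of the same family fell, and CDKN2D of the INK4 family fell. CDKN2A and CDKN2B lay below background. In these bulk cultures a change in RNA per cell and a change in the share of cells expressing a gene cannot be told apart. The share of all genes called was 35.1% (22.8% higher and 12.3% lower), so the count of 4 is set against a comparison in which more than 1 gene in 3 was called. The median log2 change of the 6 genes was 0.17, beside 0.08 for all genes. The PD325901 and control arrays did not overlap for 4 of the 6 genes, beside 40.4% of all genes. Against the BB94 arrays they did not overlap for 4 of the 6 either, beside 60.8% of all genes. Of the 14 probe sets, 5 rose and 3 fell, beside 17.2% and 12.1% of all probe sets (29.4% in either direction), and every probe set of a called gene was called in the same direction.

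**Figure D1:**
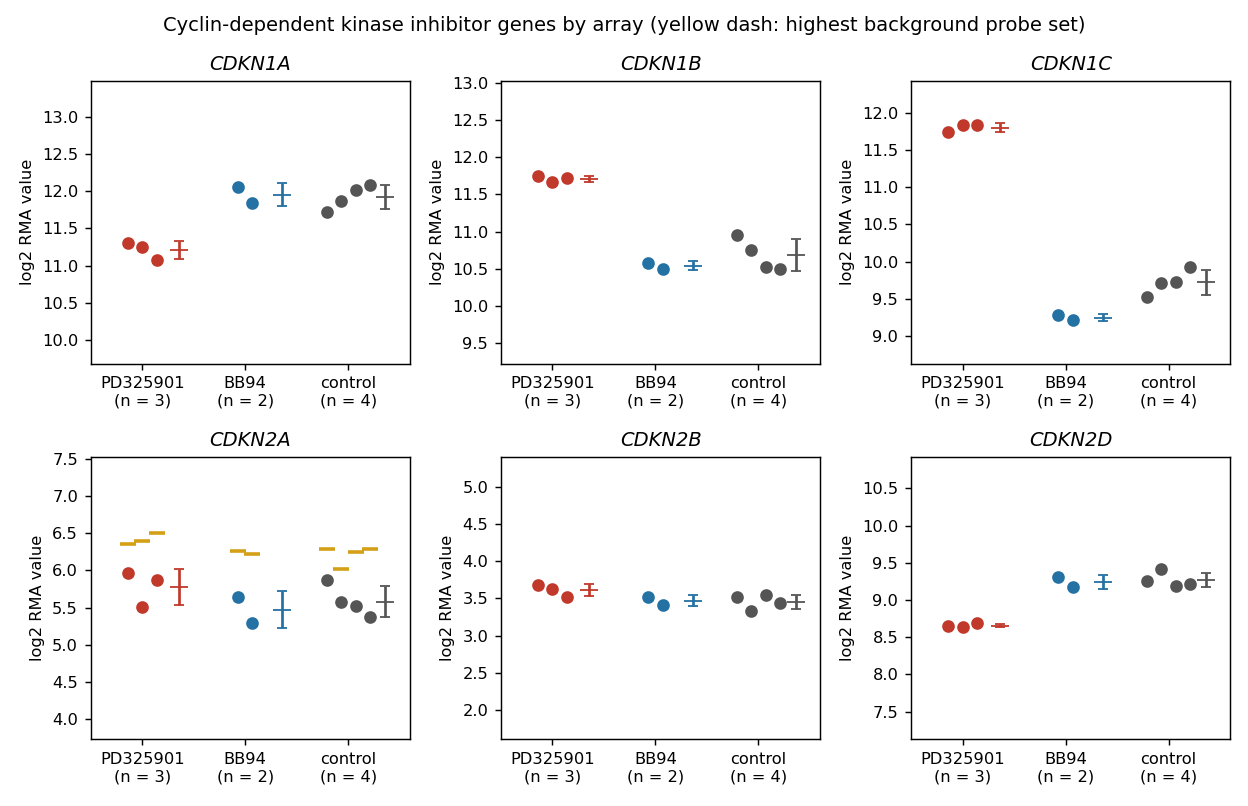
Log2 values of the 6 measured CDK inhibitor genes on each array, with a point per culture and, to its right, the group mean and SD. Each panel spans the same number of log2 units, and yellow dashes mark the highest background probe set where it falls in the panel. PD325901 arrays lie above control for CDKN1C and CDKN1B and below it for CDKN1A and CDKN2D.

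CDKN1C encodes p57, an imprinted CIP/KIP inhibitor best known for cell cycle exit during development, and it had the largest change of the 6 genes. It stood at 11.74, 11.83 and 11.84 on the PD325901 arrays, at 9.28 and 9.22 on the BB94 arrays and at 9.53, 9.71, 9.72 and 9.93 on the control arrays. The PD325901 arrays lay far above all others, and the BB94 arrays lay below every control array. The mean was 11.80 ± 0.06 (SD, n = 3) under PD325901 and 9.72 ± 0.16 (SD, n = 4) in control, a 4.23-fold rise (log2 change 2.08, SE 0.10, 95% interval 1.86 to 2.30, limma adjusted p = 1.15e-07). A further probe set made from the same source sequence rose 4.27-fold and is no independent measurement. The remaining probe set, from another source sequence, stood at 8.04, 8.42 and 8.36 under PD325901, at 6.63 and 6.56 under BB94 and at 6.98, 6.70, 6.94 and 7.02 in control. It rose 2.58-fold (log2 change 1.37, adjusted p = 6.55e-06), so the probe sets agreed in direction and differed in size.

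CDKN1B encodes p27, the inhibitor of cyclin E and CDK2 that marks quiescent cells. It stood at 11.75, 11.67 and 11.72 under PD325901, at 10.58 and 10.50 under BB94 and at 10.96, 10.76, 10.53 and 10.50 in control. All PD325901 arrays lay above all others, while BB94 lay within the control range. Control replicates 1 and 2 were the higher pair, and BB94 matched replicates 3 and 4. The mean was 11.71 ± 0.04 (SD, n = 3) under PD325901 and 10.69 ± 0.21 (SD, n = 4) in control, a 2.04-fold rise (log2 change 1.03, SE 0.11, 95% interval 0.78 to 1.28, adjusted p = 4.07e-05). The other probe set stood at 6.81, 6.79 and 6.74 under PD325901, and below background at 5.44 and 5.51 under BB94 and at 5.95, 5.95, 5.55 and 5.95 in control. Its rise was at least 1.48-fold (adjusted p = 7.16e-05).

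CDKN1A encodes p21, the inhibitor that p53 and many stress and growth signals induce. It stood at 11.30, 11.25 and 11.08 under PD325901, at 12.06 and 11.84 under BB94 and at 11.72, 11.87, 12.01 and 12.09 in control. Every PD325901 array lay below every other array, and the BB94 arrays lay within the control range. The mean was 11.21 ± 0.12 (SD, n = 3) under PD325901 and 11.92 ± 0.16 (SD, n = 4) in control, a 1.64-fold fall (log2 change -0.71, SE 0.11, 95% interval -0.96 to -0.47, adjusted p = 4.36e-04). The second probe set fell 1.66-fold (log2 change -0.73, adjusted p = 7.18e-04), with 9.83, 9.75 and 9.73 under PD325901, 10.64 and 10.49 under BB94 and 10.20, 10.47, 10.65 and 10.66 in control. Both probe sets gave nearly the same change, but they were made from the same source sequence and are no independent measurements.

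CDKN2D encodes p19, an INK4 inhibitor whose transcript is known to vary with the cell cycle. Its single probe set stood at 8.64, 8.64 and 8.68 under PD325901, at 9.31 and 9.18 under BB94 and at 9.25, 9.41, 9.19 and 9.22 in control. The PD325901 arrays lay below all others and varied little among themselves, while BB94 and control overlapped. The mean was 8.66 ± 0.03 (SD, n = 3) under PD325901 and 9.27 ± 0.10 (SD, n = 4) in control, a 1.53-fold fall (log2 change -0.61, SE 0.08, 95% interval -0.80 to -0.43, adjusted p = 1.68e-04).

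Among the 3 PD325901 cultures the called members varied little, with SDs of 0.03 to 0.12 on the log2 scale. DUSP6, the ERK phosphatase gene, stood at 11.04, 8.99 and 8.02 in the same 3 cultures (SD 1.54). No relation between them was tested over 3 arrays. Against control replicates 1 and 2 alone the log2 changes were 2.18 for CDKN1C, 0.86 for CDKN1B, -0.59 for CDKN1A and -0.68 for CDKN2D, and against control replicates 3 and 4 alone they were 1.98, 1.20, -0.84 and -0.55. All 4 genes were called against either pair.

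The median of all genes depended on scaling. Setting the arrays to a common median over genes moved the median log2 change of all genes under PD325901 to -0.17, beside 0.08 as deposited, and turned the calls to 2353 higher and 5076 lower, beside 4142 higher and 2223 lower. The 4 called members kept direction and call, with log2 changes of 1.83 for CDKN1C, 0.77 for CDKN1B, -0.97 for CDKN1A and -0.87 for CDKN2D.

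**Figure D2:**
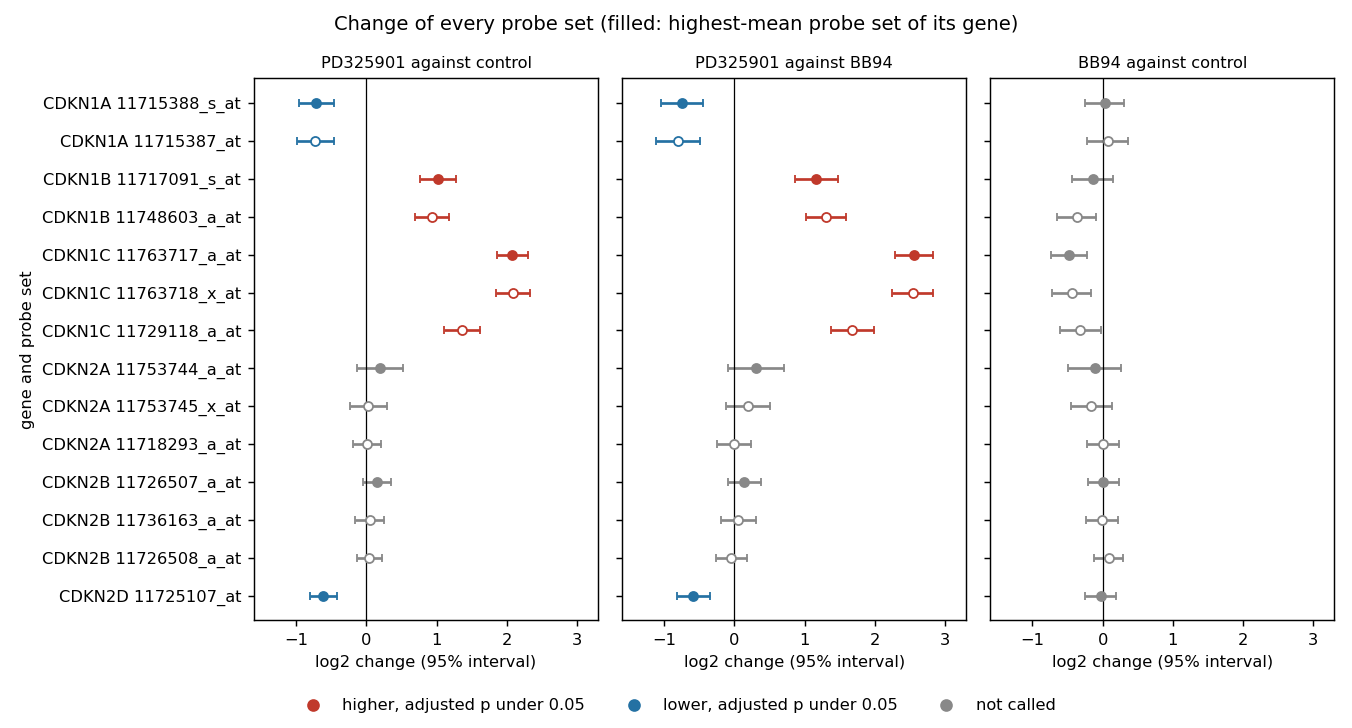
Log2 change with 95% interval for each of the 14 probe sets in the 3 comparisons, filled points being the highest-mean probe set of each gene and colours giving the call. All 3 probe sets of CDKN1C and both of CDKN1B lie right of 0 under PD325901, both of CDKN1A and that of CDKN2D lie left of it, and no probe set is called for BB94 against control.

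CDKN2A and CDKN2B, the neighbouring INK4 genes, were below background on all 9 arrays with each of their 3 probe sets. CDKN2A encodes p16 and, from another reading frame, ARF. Its brightest probe set stood at 5.96, 5.50 and 5.87 under PD325901, at 5.65 and 5.29 under BB94 and at 5.87, 5.57, 5.52 and 5.37 in control. These groups overlapped, and its dimmest probe set, at 2.70 to 2.96, lay near the median background probe set. CDKN2B, which encodes p15 and is known as a target of TGF-beta, stood at 3.67, 3.63 and 3.52 under PD325901, at 3.52 and 3.41 under BB94 and at 3.52, 3.33, 3.54 and 3.43 in control. Neither gene was called in PD325901 against control (adjusted p = 0.369 for CDKN2A and 0.209 for CDKN2B), and values below background carry no fold. With array weights CDKN2B was called in this comparison (log2 change 0.23, adjusted p = 0.0206), with all 9 arrays below background, and centring arrays on their median over genes gave -0.10.

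The genes around CDKN2A and CDKN2B were mostly below background too. MTAP, a methionine salvage enzyme gene beside CDKN2A, stood between 3.26 and 4.42 over the 9 arrays. The antisense transcript CDKN2B-AS1 stood between 2.94 and 3.49, KLHL9 between 3.42 and 3.99, IFNE between 2.65 and 3.32, DMRTA1 between 2.46 and 2.67 and ELAVL2 between 2.80 and 3.31. None of these 6 was called in any of the 3 comparisons. MLLT3, a chromatin reader gene at one end of the set, was above background on all 9 arrays. It stood at 8.57, 8.38 and 8.54 under PD325901, at 7.05 and 6.53 under BB94 and at 7.33, 7.34, 6.79 and 6.80 in control, and rose 2.70-fold under PD325901 (log2 change 1.43, adjusted p = 8.33e-05). Gene dose was not measured here.

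**Figure D3:**
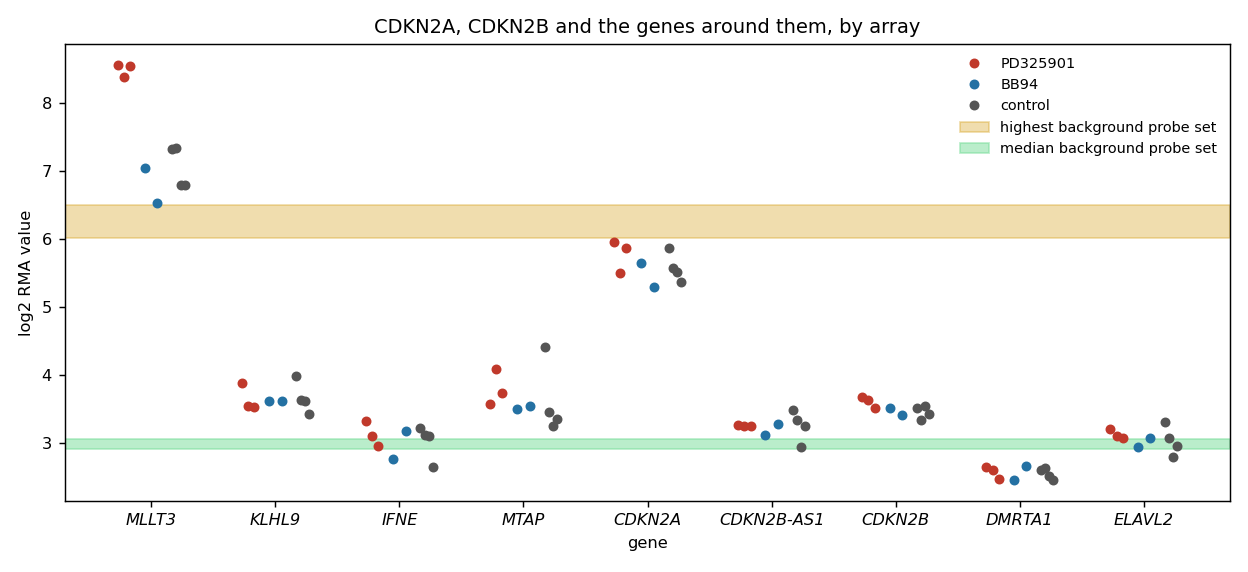
Log2 values of CDKN2A, CDKN2B and 7 genes around them on each array, in their order along the chromosome, with the range of the highest and of the median background probe set over the 9 arrays as bands. MLLT3 alone lies above the upper band, and the other 8 genes lie below it on every array.

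Around the imprinted CDKN1C, 8 of 10 listed genes were measured, of which 2 rose and 2 fell under PD325901, beside 22.8% and 12.3% of all genes. SLC67A1 (also SLC22A18), a maternally expressed transporter gene, was below background in control and rose at least 2.47-fold (adjusted p = 2.98e-05). PHLDA2, a maternally expressed growth-restraining gene of the same cluster, fell at least 2.26-fold to below background (adjusted p = 2.81e-05). NAP1L4, a histone chaperone gene, fell 1.26-fold (adjusted p = 0.0110), and KCNQ1, a potassium channel gene, was called higher with all 9 arrays below background. CARS1, CD81 and TSSC4 were not called (log2 changes of 0.02, 0.09 and 0.03). KCNQ1OT1, the paternal non-coding transcript of the cluster, was not called either (-0.15), with all 9 arrays below background. The transcripts around CDKN1C thus moved both ways. Under BB94, limma called 0 of the 8, with 2, KCNQ1OT1 and PHLDA2, at an unadjusted p under 0.05.

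No CDK inhibitor gene passed the threshold under BB94, in a comparison that shares its 4 control arrays with the first. Limma called 0 of 6 genes and 0 of 14 probe sets, beside 1.58% of all genes and 1.5% of all probe sets called. At an unadjusted p under 0.05 were 1 gene, CDKN1C, and 4 probe sets, those of CDKN1C and the second of CDKN1B. The share of all genes or probe sets at an unadjusted p under 0.05 was not counted, so these counts have no background beside them. CDKN1C came nearest. It averaged 9.25 ± 0.04 (SD, n = 2) under BB94 and 9.72 ± 0.16 (SD, n = 4) in control, a log2 change of -0.47 (SE 0.11, 95% interval -0.72 to -0.23, adjusted p = 0.0748). Both BB94 arrays lay below all 4 control arrays, an order found in 11% of all genes. The other two CDKN1C probe sets had log2 changes of -0.44 and -0.31 and were not called (adjusted p = 0.145 and 0.394). CDKN1C was called without control replicate 1 (log2 change -0.54, adjusted p = 0.0219), with control replicates 3 and 4 alone (-0.58, adjusted p = 0.0132), with array weights (-0.46, adjusted p = 0.0170) and with a filter on genes of low mean (adjusted p = 0.0488), within a range of 0.0132 to 0.557 over 21 alternatives.

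For the main probe sets of the other members the intervals of the change under BB94 included 0, and they bound what could be seen with 2 arrays. CDKN1A averaged 11.95 ± 0.15 (SD, n = 2) under BB94 and 11.92 ± 0.16 (SD, n = 4) in control, and its log2 change was 0.03 (95% confidence interval -0.25 to 0.31, adjusted p = 0.981). CDKN1B averaged 10.54 ± 0.06 (SD, n = 2) under BB94 and 10.69 ± 0.21 (SD, n = 4) in control, and its log2 change was -0.14 (95% confidence interval -0.42 to 0.14, adjusted p = 0.817). On the second CDKN1B probe set, below background in both groups, both BB94 arrays lay under all control arrays, with an interval of the log2 difference of -0.65 to -0.10 and no call (adjusted p = 0.245). CDKN2D averaged 9.24 ± 0.09 (SD, n = 2) under BB94 and 9.27 ± 0.10 (SD, n = 4) in control, and its log2 change was -0.03 (95% confidence interval -0.23 to 0.18, adjusted p = 0.974). On the main probe sets, the signs of CDKN1A, CDKN1B and CDKN2D each turned under at least 1 alternative. CDKN2A (adjusted p = 0.920) and CDKN2B (adjusted p = 0.994) were below background in both groups.

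Set directly against each other, PD325901 and BB94 differed in the same 4 members, 2 higher and 2 lower, beside 31.2% of all genes called (21% higher and 10.2% lower). This comparison uses no control array but shares the PD325901 arrays with the first. CDKN1C was 5.87-fold higher under PD325901 (log2 difference 2.55, SE 0.12, adjusted p = 1.82e-07), and CDKN1B 2.25-fold higher (1.17, SE 0.13, adjusted p = 7.56e-05). CDKN1A was 1.67-fold lower (-0.74, SE 0.13, adjusted p = 0.00132) and CDKN2D 1.50-fold lower (-0.59, SE 0.10, adjusted p = 9.38e-04). At the level of probe sets, 5 were higher and 3 lower, beside 25.8% of all probe sets called, with the second probe set of CDKN1A 1.74-fold lower, that of CDKN1B at least 1.45-fold higher and the separately sourced one of CDKN1C 3.20-fold higher under PD325901. CDKN2A and CDKN2B were not called (adjusted p = 0.236 and 0.344). The doses differ, 3 µM and 10 µM, and the inhibitors have different targets.

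The kinases and cyclins that these inhibitors bind were mostly lower under PD325901. Of 12, 9 fell, 0 rose (1 with cyclic loess between arrays) and 3 were not called, beside 12.3% of all genes called lower and 22.8% higher. The median log2 change was -0.60, beside 0.08 for all genes. CCND1, which encodes cyclin D1, stood at 9.58, 9.31 and 9.05 under PD325901 and at 12.45, 12.53, 12.79 and 12.65 in control, a 9.78-fold fall (adjusted p = 3.61e-08). CCNE2, a partner of CDK2, fell 4.01-fold (adjusted p = 1.31e-04) and CCND3 2.02-fold (adjusted p = 6.47e-05). CCND2, another cyclin D gene, named here after its values were seen, did not fall and was not called. It stood at 13.41, 13.32 and 13.53 under PD325901 and at 13.29, 13.29, 13.29 and 13.11 in control. CCNE2 varied within control, at 10.86 and 10.43 in replicates 1 and 2 and at 9.72 and 9.61 in replicates 3 and 4. Of the kinases that INK4 proteins bind, named here after their values were seen, CDK6 fell 1.38-fold (adjusted p = 0.00115), and CDK4 was not called (log2 change -0.16, 95% interval -0.39 to 0.08, adjusted p = 0.310). With arrays centred on their median over genes CDK4 was called lower (log2 change -0.41, adjusted p = 0.0162). Under BB94, limma called 0 of 12, with a median log2 change of -0.04 and 2 at an unadjusted p under 0.05.

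Downstream of the kinases, 7 of 12 RB, E2F and DREAM genes fell and 1 rose under PD325901, beside 12.3% and 22.8% of all genes. The median log2 change was -0.56, beside 0.08 for all genes. E2F1 fell 3.03-fold (adjusted p = 9.26e-07) and E2F2 2.19-fold (adjusted p = 3.64e-06). RBL1, which encodes the RB-related p107, fell at least 1.97-fold to below background (adjusted p = 1.97e-06). The gene that rose, named after its value was seen, was RBL2, which encodes p130, the RB relative of quiescent cells (1.34-fold, adjusted p = 0.0137). Under BB94, limma called 0 of the 12, with 0 at an unadjusted p under 0.05. The call of RBL2 ended when arrays were centred on their median over genes (log2 change 0.17, adjusted p = 0.250).

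Among genes that set p21 and p27 protein levels, SKP2, CKS1B and DTL had the largest changes under PD325901, all lower. Of 14, 4 fell, 1 rose and 9 were not called, beside 12.3% of all genes called lower and 22.8% higher. The median log2 change was -0.03, and with arrays centred on their median over genes 8 fell and 1 rose (median -0.28). SKP2, the ligase subunit that targets p27, stood at 7.27, 7.59 and 7.56 under PD325901 and at 8.99, 9.22, 9.15 and 9.25 in control, a 3.20-fold fall (adjusted p = 6.07e-07). CKS1B, the cofactor of SKP2 for p27, fell 1.97-fold (adjusted p = 5.42e-06). DTL, the CUL4 adaptor that targets p21 in S phase, fell 3.08-fold (adjusted p = 3.40e-07). Under BB94, limma called 0 of the 14, with 1 at an unadjusted p under 0.05. PSME3, a proteasome activator, fell and RNF123, a ligase for p27 in G1, rose, with log2 changes of -0.37 and 0.60, both named after their values were seen. Protein levels were not measured here.

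Of 19 regulators of CDKN transcription measured, 6 rose and 2 fell under PD325901, shares of 31.6% and 10.5% that lay near the 22.8% and 12.3% of all genes. The balance depended on scaling: the median log2 change was 0.11, and with arrays centred on their median over genes 3 rose and 6 fell (median -0.14). FOXO4, a forkhead activator of CDKN1B, rose 1.82-fold (adjusted p = 1.69e-04). MYC, a repressor of CDKN1A transcription, fell 2.59-fold (adjusted p = 0.00567). It stood at 9.10, 9.14 and 9.48 under PD325901, at 11.03 and 10.97 under BB94 and at 11.20, 11.22, 10.29 and 9.74 in control, where replicate 4 lay nearest to the PD325901 arrays. EZH2, the Polycomb methyltransferase that silences the INK4 locus and CDKN1C, fell 1.96-fold (adjusted p = 3.47e-06). ID1, a dominant-negative helix-loop-helix protein gene, rose 2.27-fold under PD325901 (adjusted p = 3.22e-06) and 1.48-fold under BB94 (adjusted p = 0.0231), where it was the only one of the 19 called.

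Of 22 p53 target genes measured beside CDKN1A, 9 rose and 6 fell under PD325901, or 40.9% and 27.3%, beside 22.8% and 12.3% of all genes. The balance turned with scaling: the median log2 change was 0.19, and with arrays centred on their median over genes 5 rose and 8 fell (median -0.06). TP53INP1 rose 2.51-fold (adjusted p = 2.56e-06) and BBC3, which encodes the pro-apoptotic protein PUMA, 2.24-fold (adjusted p = 1.98e-05). AEN, an apoptosis-enhancing nuclease gene, fell 3.49-fold (adjusted p = 8.72e-08). GDF15, a stress-induced cytokine gene, was alone among the 22 in being called under BB94, and its calls under the inhibitors had opposite signs. It rose 1.77-fold under PD325901 (adjusted p = 1.83e-04) and fell 1.76-fold under BB94, with 9.87, 9.85 and 9.79 under PD325901, 8.25 and 8.14 under BB94 and 8.83, 8.94, 9.31 and 8.98 in control (adjusted p = 0.00903). Among 5 genes with like names that encode no CDK inhibitor of either family, 2 fell under PD325901, the phosphatase gene CDKN3 (log2 change -0.47, adjusted p = 0.00722) and CDKN2AIP (-0.69, adjusted p = 0.00658), beside 12.3% of all genes called lower. With arrays centred on their median over genes, 4 of the 5 fell.

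**Figure D4:**
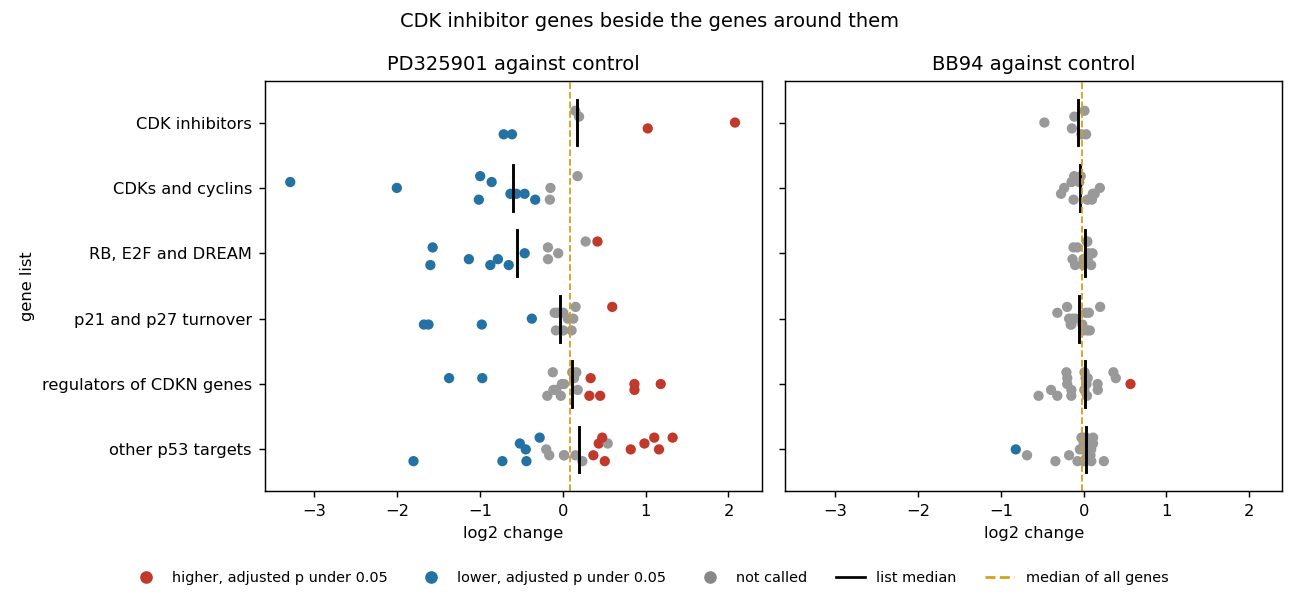
Log2 change of each measured gene of 6 lists for PD325901 against control and BB94 against control, a point per gene coloured by its call, with the list median as a black bar and the median of all genes as a dashed line. CDK inhibitors spread to both sides under PD325901, while CDKs, cyclins and E2F genes lie mostly to the left.

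The genes whose profiles lay nearest to each called member were found by the root mean square difference of log2 values over the 9 arrays, each relative to its own control mean. For CDKN1C these were IL32 at 0.12, WNT10A at 0.14 and TTYH2 at 0.14, the last 2 below background on most arrays. IL32, a cytokine gene, averaged 1.96 above its control mean under PD325901 and 0.59 below it under BB94 on the log2 scale. For CDKN1B they were GATA6, a transcription factor gene, at 0.04, then DZIP3 and OTUD1 at 0.07 each. For CDKN1A they were BYSL at 0.06, ICMT at 0.06 and RAD51C at 0.07. For CDKN2D they were PARPBP at 0.06, YRDC at 0.07 and UBR7 at 0.07. These distances describe 9 arrays in 3 groups that share their normalization.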

How the data were processed

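RNA of 9 cultures was measured on Affymetrix PrimeView arrays, a 1-colour platform whose precision is limited by the number of arrays. The authors deposited log2 values per probe set, made by RMA per the submitters' processing notes. RMA corrects background, equalises the distributions of the arrays and summarises probes, so a shift common to most genes would be removed. The deposited values were used as they stood, without further scaling. The 102 Affymetrix control probe sets and those with several (1832) or no listed gene (2473) were left out, and 44961 of the 44988 probe sets with 1 symbol matched RefSeq (GRCh38.p14). Each of 18132 genes took its probe set with the highest mean.

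One linear model with a mean per group was fitted to all 9 arrays with limma 3.58.1 in R 4.3.3 (lmFit and eBayes, 6 residual degrees of freedom). Benjamini-Hochberg adjustment ran over all genes, and changes were called at an adjusted p under 0.05. A value lay below background when under the array's highest background probe set. Where that held for any array of the dimmer group, the fold is a lower bound, with each array of that group set to the higher of its value and this level. The members and lists were chosen with earlier results of these data known. Genes were named by rule: all members, the 3 largest called changes per list, all neighbours and ERK outputs, and the 3 nearest profiles. No array was a copy of another: over the 36 pairs, 387 to 1088 probe sets held equal values. On simulated data for PD325901 against control, over 18132 genes, 96% of genes changed by 1 and 100% of those changed by 2 on the log2 scale were recovered, with 18 false calls. Alternatives changed the probe set rule, filter, scaling, fit and arrays used.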

Additional observations from a re-analysis of the deposited data

Results flagged for a closer look

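In 3 of 73 groups of 4 control arrays tested, 1 array lay far from the other three, against about 1 in 20 by chance. The second probe set of CDKN1B stood at 5.55 in control replicate 3. A probe set of CDKN2A stood at 5.05 in control replicate 1, and another stood at 2.70 in control replicate 4. All of these values lay below background, and the probe sets used for the results were not among them.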

How the results depend on the processing

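Under PD325901 against control, the number of called genes was 4 in 20 of 21 alternatives and 5 with array weights, and leaving out any 1 array kept it at 4. Over these alternatives the log2 change ranged from 1.83 to 2.18 for CDKN1C, 0.77 to 1.20 for CDKN1B, -0.97 to -0.59 for CDKN1A and -0.87 to -0.55 for CDKN2D. Under PD325901 against BB94 it was 4 in all 19. Under BB94 against control, 1 gene (CDKN1C, lower) was called with the filter on mean level, with array weights and with control replicates 3 and 4 alone, and leaving out 1 array gave 0 to 1, the 1 being without control replicate 1; the cause was not tested. The count of all genes called under BB94 was 286. With control replicates 3 and 4 alone it was 1633, and with control replicates 1 and 2 alone it was 312. Array weights gave 469, only the 2 groups 140 and the replicate block 161.

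Signs turned only among changes that were not called. Centring on the gene median gave -0.057 for CDKN2A and -0.10 for CDKN2B in PD325901 against control, and -0.017 and -0.19 in PD325901 against BB94, where centring on the probe set median gave -0.074 for CDKN2B. In BB94 against control, CDKN2D was 0.046 and 0.085 with these centrings and 0.031 with cyclic loess. With control replicates 3 and 4 alone, BB94 against control gave -0.097 for CDKN1A, 0.028 for CDKN1B, 0.025 for CDKN2A, -0.021 for CDKN2B and 0.038 for CDKN2D. Leaving out 1 array gave -0.078 to 0.14 for CDKN1A, -0.29 to 0.063 for CDKN2A, -0.042 to 0.062 for CDKN2B and -0.091 to 0.037 for CDKN2D. Where 1 BB94 array was left, its spread was taken from the other groups. The filter left no value for CDKN2B.

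The replicate block gave CDKN2B -5.7e-04 and changed no other sign and no call of a member, with 4, 0 and 4 genes called in PD325901 against control, BB94 against control and PD325901 against BB94. Deviations from the group mean correlated between -0.19 and 0.12 for same-numbered arrays and between -0.27 and 0.27 for different-numbered ones. The deviations of the 2 BB94 arrays mirror each other by construction, so correlations with them cannot show whether cultures were paired. The labels name no pairing, and the numbers were not taken to pair the cultures. The 2 BB94 arrays limit what could be called there, and signals below background carry no change for CDKN2A and CDKN2B.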
